A study of Mus musculus with 10 samples.

Results

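The Hippo pathway was followed through 10 of its core genes in mouse liver: the kinases Stk3 and Stk4 (MST2 and MST1), the kinases Lats1 and Lats2, the coactivators Yap1 (YAP) and Wwtr1 (TAZ), the DNA-binding factors Tead1, Tead3 and Tead4, and Vgll4, which competes with the coactivators for TEAD. These 10 rows were taken by symbol from the 17274 genes of the deposited expression table. The samples were 10 livers of wild-type mice (genotype label WT), all fed CDAHFD, a choline-deficient and fat-rich diet made with defined L-amino acids, which induces nonalcoholic steatohepatitis (NASH), in which a fat-laden liver becomes inflamed and fibrotic. In 5 livers the mice had received an adeno-associated virus (AAV) encoding miR-181d-5p by intravenous injection, and in 5 they had received a control AAV. The labels do not state the promoter of the vectors, the age of the mice or the length of the diet, and no liver of a mouse on a normal diet was analysed here. Replicates carry a number and no animal in the labels, so the spread behind each p-value is that of the samples and may be technical.

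In the Hippo pathway, STK3 and STK4 activate LATS1 and LATS2, which phosphorylate YAP and TAZ and so keep them out of the nucleus. When this cascade is off, YAP and TAZ enter the nucleus and, bound to TEAD factors, switch on genes of growth, matrix and cytoskeleton. In the liver the pathway is known for limiting organ size and for holding hepatocytes in their mature state, and YAP and TAZ are active in bile duct cells and in activated stellate cells. The regulation acts largely on protein phosphorylation and location, which RNA levels do not show. In human pancreatic cancer cells miR-181c, a relative with the same seed, has been described as repressing STK4, LATS2 and other members of the cascade.

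MicroRNAs pair with target RNAs mainly through their seed, bases 2 to 8. The mature mouse miR-181 sequences (RefSeq, GRCm38.p6) are shown because the delivered microRNA and its relatives share that seed, which is in capitals.
miR-181d-5p: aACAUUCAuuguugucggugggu
miR-181b-5p: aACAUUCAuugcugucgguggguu
miR-181a-5p: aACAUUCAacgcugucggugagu
miR-181c-5p: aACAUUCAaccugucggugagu

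Matches to this seed were looked for in the longest annotated 3' UTR of each gene (GENCODE vM21, mm10), on the transcript strand. An 8mer match reads TGAATGTA, a 7mer-m8 match TGAATGT and a 7mer-A1 match GAATGTA, and each site was counted once, as the longest form it held. Of the 10 genes 4 held a match and 1 held an 8mer. A match was held by 24.0%, and an 8mer by 6.13%, of the 11771 tested genes for which a 3' UTR is annotated. A longer 3' UTR leaves more room for a match, and these shares were not adjusted for length. The median length was 1287 nt over the 11771 genes, and the 10 genes had 741 to 8147 nt. The sites follow in 30 bases of transcript, 5' to 3', with the match in capitals, because they are the places where the microRNA could pair with these RNAs.
Lats1 8mer, chr10:7716340-7716347: ttggatatttcTGAATGTActagaacaaat
Lats1 7mer-A1, chr10:7715432-7715438: atggtgcctcaGAATGTAaacactaattct
Lats1 7mer-A1, chr10:7715879-7715885: tagaaactataGAATGTAtgactaagaagt
Tead1 7mer-A1, chr7:112899184-112899190: aagttatggaaGAATGTAattcactaaatt
Tead3 7mer-m8, chr17:28332395-28332401: ccctaggggaaTGAATGTgctgggcaggtg
Stk3 7mer-m8, chr15:34876188-34876194: gatagttttggTGAATGTccagacacattg

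The Lats1 and Tead1 sites lie on the forward strand, in exon 8 of 8 and exon 14 of 14. The Tead3 and Stk3 sites lie on the reverse strand, in exon 13 of 13 and exon 11 of 11. All 3 Lats1 sites sit in the distal part of its 3' UTR, from base 2422 of 3450 on, and 1 of its 3 annotated 3' UTRs holds them. The Tead1 site is at base 524 of 8147 and is present in all 4 of its annotated 3' UTRs. The longest 3' UTRs of Yap1 (2498 nt), Wwtr1 (3277 nt), Lats2 (3207 nt), Stk4 (3693 nt), Tead4 (1223 nt) and Vgll4 (741 nt) held no such letters. With every annotated 3' UTR searched, 5 genes held a match, the fifth being Tead4. Which 3' UTR the livers use was not tested.

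Levels are given in FPKM, in which fragment numbers are divided by the length of the gene and the depth of the library. Library totals recovered from the values were 18985912 to 20657019 reads, and each of the 10 genes had at least 9 reads in each liver. The 9 genes other than Tead4 averaged at least 0.5 FPKM over the 10 livers and were tested. Differences were tested with limma on log2(FPKM + 1) over all 12053 genes that passed this filter, with two-sided tests and Benjamini-Hochberg adjustment, so a log2 change understates that of low genes. By limma 0 of the 9 tested genes had an adjusted p under 0.05, and 0 of all 12053 genes (0.0%). Voom on recovered reads and voom with quality weights also called 0 of the 9. At an unadjusted p under 0.05 there were 3 of the 9, Tead1, Lats2 and Wwtr1, all lower in miR-181d-5p livers and none higher. Of all genes 14.7% were at that level, 9.63% lower and 5.04% higher. Of the 9 genes 8 had a negative log2 change, as had 54.5% of all genes tested. Their median log2 change was -0.10, against -0.02 over all genes.

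**Figure D1:**
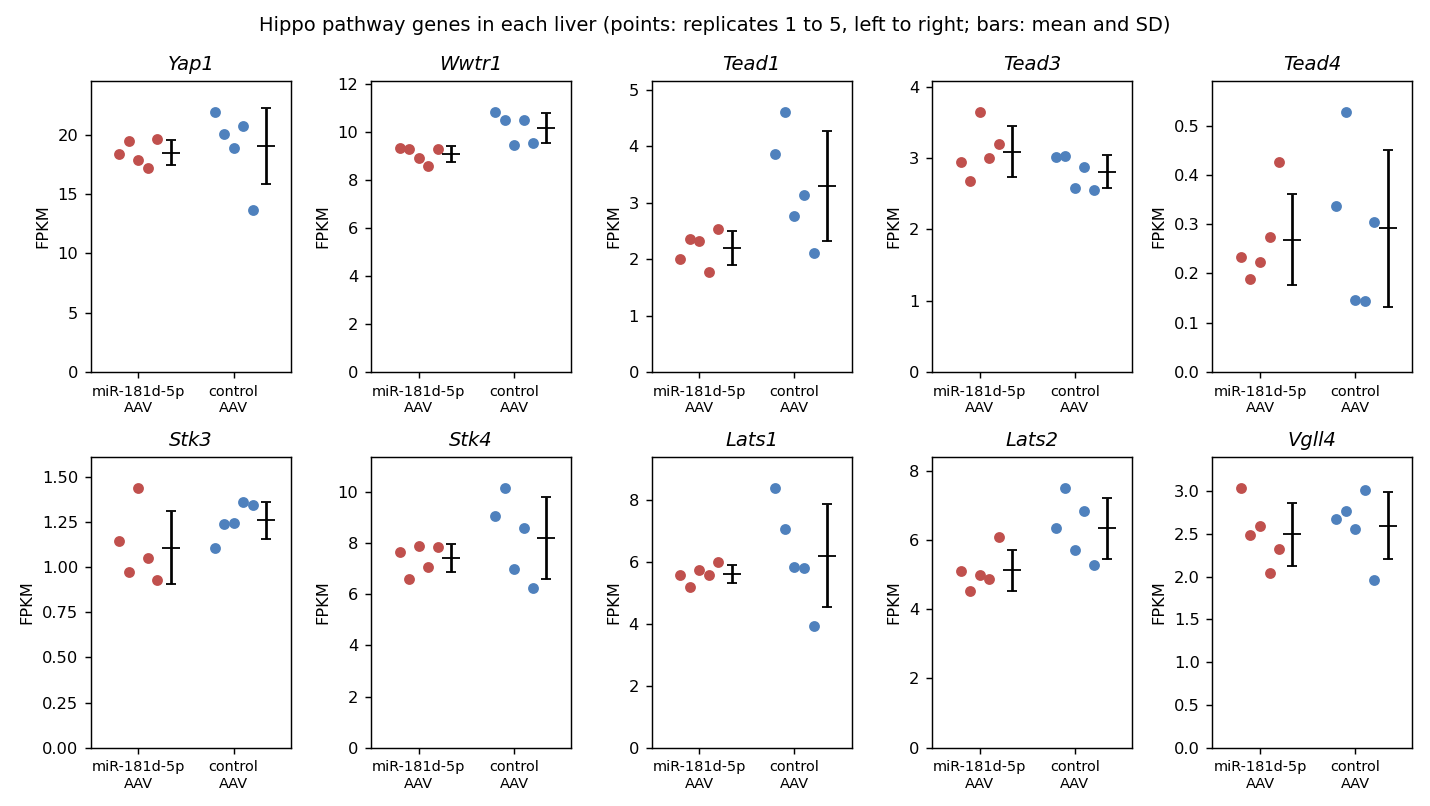
FPKM (vertical axes, from 0) of each of the 10 genes in 5 miR-181d-5p AAV livers (red) and 5 control AAV livers (blue), with points in the order of replicates 1 to 5 and black bars for the mean and SD. Wwtr1 is the gene whose groups do not overlap, and in Yap1, Lats1 and Tead1 control liver 5 is the lowest point of its group.

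Of the coactivators, the RNA of TAZ had a lower mean in miR-181d-5p livers and that of YAP nearly the same mean in both groups, and neither passed the test over all genes. Wwtr1 (chromosome 3, 57455649 to 57575910, reverse strand) stood at 9.32, 9.29, 8.88, 8.56 and 9.26 FPKM in miR-181d-5p livers 1 to 5, and at 10.8, 10.5, 9.46, 10.5 and 9.52 FPKM in control livers 1 to 5. Each miR-181d-5p liver thus lay below each control liver, though the highest of the first and the lowest of the second are close. The means were 9.06 ± 0.332 FPKM in miR-181d-5p livers and 10.1 ± 0.618 FPKM in control livers (SD, n = 5 each), so the first is 89.3% of the second. The log2 change was -0.15 (SE 0.0651, 95% interval -0.29 to -0.01), with a limma adjusted p of 0.331. An exact permutation test, two-sided, gave p = 0.00794, which is the smallest its 252 labellings can give, and 0.315 when adjusted over the same test of all genes. Groups that do not overlap were seen in 1 of the 9 genes and in 2.47% of all genes tested, 1.45% being lower and 1.02% higher in miR-181d-5p livers.

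Yap1 (chromosome 9, 7931999 to 8004596, reverse strand) stood at 18.4, 19.4, 17.9, 17.2 and 19.6 FPKM in miR-181d-5p livers and at 21.9, 20.1, 18.9, 20.7 and 13.6 FPKM in control livers. The groups overlapped: control liver 5 was the lowest of all 10, and miR-181d-5p livers 2 and 5 lay above control liver 3 as well. The means were 18.5 ± 1.04 FPKM and 19.0 ± 3.21 FPKM, in that order. Its log2 change was -0.02 (95% interval -0.26 to 0.21, limma adjusted p = 0.930), an interval that does not leave out a change as large as that of Wwtr1. Without control liver 5 it was -0.13 (limma adjusted p = 0.267). Per liver, the ratio of Wwtr1 to Yap1 FPKM ran from 0.472 to 0.507 in miR-181d-5p livers and from 0.494 to 0.697 in control livers, where control liver 5 held the 0.697.

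The TEAD factors carry YAP and TAZ to DNA. The mean of Tead1 was lower and that of Tead3 higher in miR-181d-5p livers, neither passed the test over all genes, and the difference between them was not tested. Tead1 (chromosome 7, 112679318 to 112906807, forward strand) had the largest change of the 9 tested genes. It stood at 2.01, 2.36, 2.32, 1.77 and 2.54 FPKM in miR-181d-5p livers, and at 3.87, 4.60, 2.76, 3.13 and 2.12 FPKM in control livers. Control liver 5 lay within the range of the miR-181d-5p livers, and the other 4 control livers lay above all of them. The means were 2.20 ± 0.308 FPKM in miR-181d-5p livers and 3.30 ± 0.968 FPKM in control livers (66.7%). This is a log2 change of -0.40 (SE 0.14, 95% interval -0.70 to -0.10), with a limma adjusted p of 0.257 and an exact permutation p of 0.0476 (0.365 adjusted over all genes). By voom on recovered reads, where no pseudocount of 1 FPKM enters, it was -0.54.

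Tead3 (chromosome 17, 28331671 to 28350817, reverse strand) was the 1 tested gene with a positive log2 change. It stood at 2.95, 2.67, 3.65, 3.004 and 3.20 FPKM in miR-181d-5p livers and at 3.01, 3.03, 2.58, 2.88 and 2.55 FPKM in control livers, and the groups overlapped (log2 change 0.10, 95% interval -0.07 to 0.28, limma adjusted p = 0.559). The ratio of Tead1 to Tead3 FPKM ran from 0.589 to 0.883 in miR-181d-5p livers, median 0.680, and from 0.830 to 1.52 in control livers, median 1.09. Tead4 (chromosome 6, 128224288 to 128300823, reverse strand) was near the floor of these libraries, at 0.189 to 0.425 FPKM in miR-181d-5p livers and 0.144 to 0.527 FPKM in control livers, from 81 reads in the first group and 87 in the second. It was below the expression filter. With no filter its unadjusted limma p was 0.806, and a difference of the size seen for Tead1 could not be judged at this depth.

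**Figure D2:**
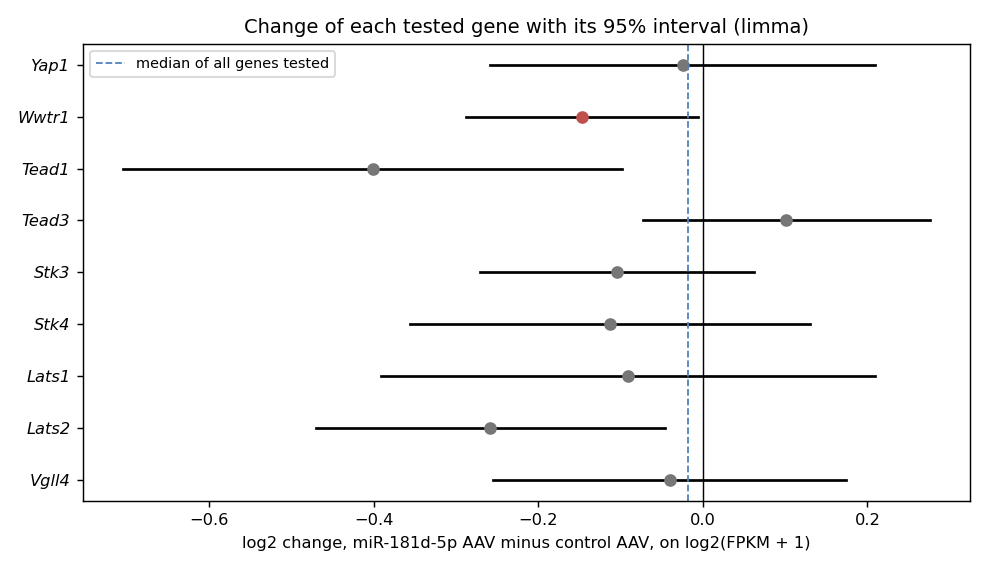
Log2 change (horizontal axis, miR-181d-5p AAV minus control AAV, on log2(FPKM + 1)) of the 9 tested genes, with lines for the 95% interval from limma and a dashed line for the median of all genes tested. The intervals of Wwtr1, Tead1 and Lats2 lie below 0 before adjustment, and Wwtr1, in red, is the gene whose groups do not overlap.

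The LATS kinases phosphorylate YAP and TAZ, and LATS2 is itself a known transcriptional target of YAP. Lats2 (chromosome 14, 57689662 to 57758388, reverse strand) stood at 5.09, 4.52, 4.99, 4.89 and 6.10 FPKM in miR-181d-5p livers and at 6.36, 7.50, 5.70, 6.85 and 5.27 FPKM in control livers. Livers 1 to 4 of the miR-181d-5p group lay below every control liver, and liver 5 lay among the controls. The means were 5.12 ± 0.589 FPKM in miR-181d-5p livers and 6.33 ± 0.890 FPKM in control livers (80.8%). This is a log2 change of -0.26 (SE 0.10, 95% interval -0.47 to -0.05), with a limma adjusted p of 0.281 and an exact permutation p of 0.0397 (0.350 adjusted over all genes).

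Lats1 (chromosome 10, 7681214 to 7716460, forward strand), the gene with the 8mer and the other 2 seed matches shown above, stood at 5.59, 5.21, 5.75, 5.58 and 6.01 FPKM in miR-181d-5p livers and at 8.40, 7.08, 5.85, 5.81 and 3.92 FPKM in control livers. The miR-181d-5p livers lay inside the range of the controls, with an SD of 0.293 FPKM in miR-181d-5p livers and 1.66 FPKM in control livers. Its log2 change was -0.09 (95% interval -0.39 to 0.21, limma adjusted p = 0.774). Without control liver 5 it was -0.22 (adjusted p = 0.225), and without control liver 1 it was 0.01. The ratio of Lats2 to Lats1 FPKM overlapped between the groups, from 0.868 to 1.01 in miR-181d-5p livers and from 0.757 to 1.34 in control livers.

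The upstream kinases Stk4 and Stk3 are the mammalian counterparts of the Drosophila kinase Hippo. Stk4 (chromosome 2, 164070322 to 164155524, forward strand) stood at 7.65, 6.60, 7.88, 7.08 and 7.85 FPKM in miR-181d-5p livers and at 9.03, 10.2, 6.97, 8.59 and 6.22 FPKM in control livers. The groups overlapped, with control liver 3 within the range of the miR-181d-5p livers, control liver 5 below it and the other 3 above. The log2 change was -0.11 (95% interval -0.36 to 0.13, limma adjusted p = 0.647), and -0.20 without control liver 5. Stk3 (chromosome 15, 34875496 to 35178921, reverse strand) stood at 1.14, 0.974, 1.44, 1.05 and 0.928 FPKM in miR-181d-5p livers and at 1.10, 1.24, 1.25, 1.36 and 1.35 FPKM in control livers. Liver 3 of the miR-181d-5p group was the highest of all 10, and 3 others of that group lay below every control. Its log2 change was -0.10 (95% interval -0.27 to 0.06, limma adjusted p = 0.529), -0.20 by voom on recovered reads and -5.3e-04 after each liver was corrected for a trend with gene length. The ratio of Stk4 to Stk3 FPKM ran from 5.48 to 8.45 in miR-181d-5p livers and from 4.63 to 8.20 in control livers.

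Vgll4 (chromosome 6, 114860628 to 114969994, reverse strand), the competitor of YAP and TAZ on TEAD, stood at 3.04, 2.49, 2.59, 2.04 and 2.32 FPKM in miR-181d-5p livers and at 2.67, 2.77, 2.56, 3.02 and 1.96 FPKM in control livers. The 2 ranges overlap over most of their width. Its log2 change was -0.04 (95% interval -0.25 to 0.17, limma adjusted p = 0.868).

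The 10 genes span a wide range of levels. By deposited FPKM over all 10 livers, Yap1 was highest with a mean of 18.8, followed by Wwtr1 at 9.61, Stk4 at 7.80, Lats1 at 5.92, Lats2 at 5.73, Tead3 at 2.95, Tead1 at 2.75, Vgll4 at 2.54, Stk3 at 1.18 and Tead4 at 0.280. Neighbours whose order held in each of the 10 livers were Yap1 over Wwtr1, Wwtr1 over Stk4, Stk4 over Lats1, Lats2 over Tead3, Vgll4 over Stk3 and Stk3 over Tead4, though in control livers the range of Stk4 overlapped those of Wwtr1 and Lats1. Lats1 over Lats2, Tead3 over Tead1 and Tead1 over Vgll4 held in 6 livers each, so over all livers these neighbours do not differ beyond their spread. Tead3 lay above Tead1 in all 5 miR-181d-5p livers and in 1 control liver. The gene lengths behind the values differ from GENCODE vM21 for some genes: 4189 against 9257 bases of merged exons for Yap1, 14816 against 5396 for Vgll4, 11279 against 6114 for Stk3 and 3005 against 6714 for Tead3. On the GENCODE lengths Wwtr1 would lead with a mean of 9.62, ahead of Yap1 at 8.49, Stk4 at 7.22 and Vgll4 at 6.99. Vgll4 would then lie above Lats1 at 5.85 and Lats2 at 4.54, and Stk3 at 2.18 above Tead1 at 2.01 and Tead3 at 1.32. The orders of Yap1 and Wwtr1 and of Tead1 and Tead3, and the places of Vgll4 and Stk3, therefore rest on the lengths used. So does the size of every ratio between genes given above. The ratio of 1 gene's FPKM between livers does not. Its log2 change and the filter at 0.5 FPKM do in part, since 1 FPKM is added before the log. With 0.1 FPKM added, the log2 change of Stk3 was -0.18, against -0.10.

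Control livers varied more than miR-181d-5p livers. The SD of FPKM was lower in miR-181d-5p livers for 8 of the 10 genes, the exceptions being Tead3 and Stk3. Over all genes tested the SD of log2 values was lower in that group for 76.1%. Control liver 5 was the lowest control for 7 of the 10 genes, and control livers 1 and 2 were the highest for 3 and 5. These same libraries stood apart in the sum of all FPKM values, which is low where more of the reads come from long genes. The sum was 471179 to 479869 in the 5 miR-181d-5p livers, against 440782 and 444090 in control livers 1 and 2, 482553 and 470846 in control livers 3 and 4, and 502752 in control liver 5. Its part in the results was not tested beyond 2 rescaled fits. With FPKM rescaled to a common sum the log2 changes were -0.43 for Tead1, -0.28 for Lats2 and -0.17 for Wwtr1. After correction of each liver for a trend with gene length they were -0.30, -0.20 and -0.10, and the unadjusted p of Wwtr1 was above 0.05 in both fits. Under these 2 fits the background split at an unadjusted p under 0.05 was 347 higher and 1266 lower, and 911 and 1219, against 607 and 1161 with FPKM as deposited. After quantile normalization it was 997 and 942, and there Tead3 was among the genes at an unadjusted p under 0.05 (log2 change 0.18).

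**Figure D3:**
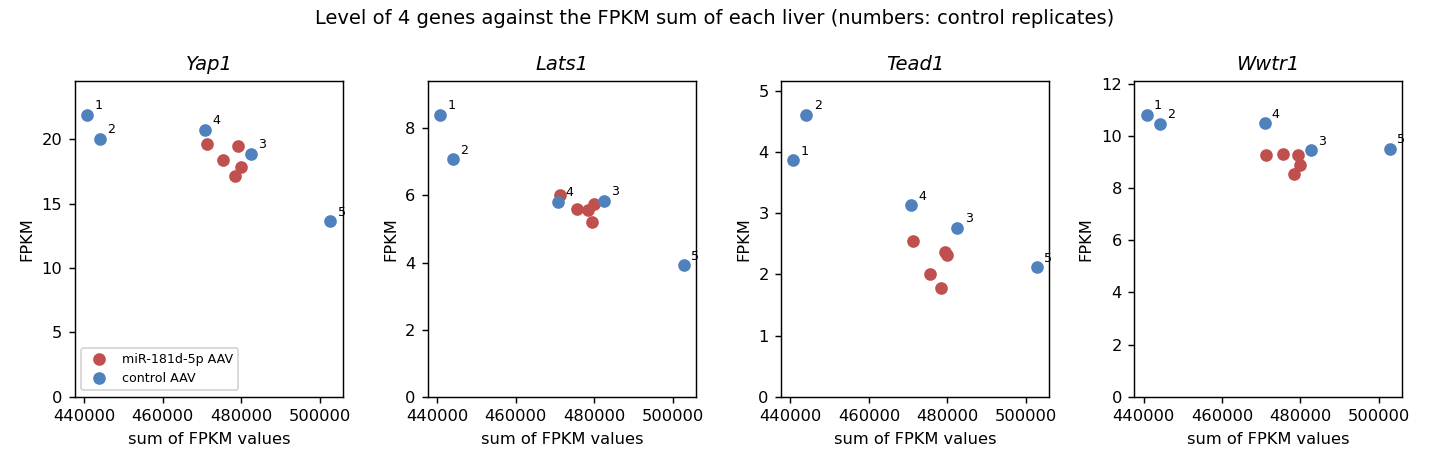
FPKM of Yap1, Lats1, Tead1 and Wwtr1 (vertical axes, from 0) against the sum of all FPKM values of the same liver (horizontal axes, FPKM) in miR-181d-5p AAV livers (red) and control AAV livers (blue, numbered by replicate). The miR-181d-5p livers lie between sums of 471179 and 479869, while controls 1 and 2 lie far to the left with high Lats1 and Tead1 and control 5 far to the right with low Lats1 and Yap1.

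The genes whose pattern over the 10 livers was most like that of Yap1 by Pearson's r of log2(FPKM + 1), among 10796 genes, were Rbsn (r = 0.97, Spearman's rho = 0.96), Edc4 (0.97 and 0.89) and Tsr1 (0.95 and 0.84). Those most like Wwtr1 were Gnptab (r = 0.95, rho = 0.92), Stag2 (0.95 and 0.92) and Frmd6 (0.95 and 0.94). Frmd6 encodes a FERM domain protein that is known to act upstream in the Hippo pathway. Among the 10 genes, Lats1 ranked 235th in likeness to Yap1 (r = 0.85, rho = 0.78), though Tead1 had a higher rho with Yap1 (0.87). Tead1 ranked 110th in likeness to Wwtr1 (r = 0.87, rho = 0.72). Yap1 and Wwtr1 correlated less with each other (r = 0.53, rho = 0.64). Negative r were seen for Stk3 with Yap1 (-0.30) and for Tead3 with Wwtr1 (-0.17). These are descriptions over livers that share the differences in FPKM sum given above. Both groups enter together, so a difference between the groups is part of each correlation.

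Promoters were searched for GGAATG, the core of the TEAD binding motif, on both strands (capitals). Those of Wwtr1 and Lats2, 2 of the genes with lower means, are shown as 2 of the 5 genes that held it. The windows run from 250 bases before to 50 after the start (RefSeq, GRCm38.p6), on the reverse strand of chr3:57575861-57576160 and chr14:57746074-57746373.
Wwtr1: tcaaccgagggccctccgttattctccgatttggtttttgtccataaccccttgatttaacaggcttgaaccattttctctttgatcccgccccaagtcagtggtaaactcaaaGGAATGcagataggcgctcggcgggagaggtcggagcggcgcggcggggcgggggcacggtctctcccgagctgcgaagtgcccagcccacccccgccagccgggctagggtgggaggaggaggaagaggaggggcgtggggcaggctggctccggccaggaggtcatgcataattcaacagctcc
Lats2: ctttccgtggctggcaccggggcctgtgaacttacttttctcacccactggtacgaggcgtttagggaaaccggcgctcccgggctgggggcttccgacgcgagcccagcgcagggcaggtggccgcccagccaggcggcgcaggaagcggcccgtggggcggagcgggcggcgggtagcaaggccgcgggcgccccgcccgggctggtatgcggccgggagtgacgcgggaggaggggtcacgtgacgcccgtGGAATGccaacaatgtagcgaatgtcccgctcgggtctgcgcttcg

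Of the 10 genes 7 matched a promoter window by symbol, and the motif was in a window of 5 of them: Yap1, Wwtr1, Tead3, Lats2 and Vgll4. Lats1 and Stk4, which also had negative log2 changes, had windows without these letters. Over all genes with a window 16.6% held the motif in at least 1, and of the windows 14.7% held it. A match of these letters is a description and not a binding site. The letters were present in Wwtr1 and Lats2 and also in Tead3, the 1 gene with a positive log2 change. Wwtr1 and Lats2 each have 2 windows in the table, and the letters were in both of Wwtr1 and in 1 of Lats2. The 2 windows of Wwtr1 overlap and hold the same site.

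The genes upstream of the kinases and their scaffolds had a lower mean in most cases, with none called. Of 23 tested genes 18 had a negative log2 change, 5 were lower at an unadjusted p under 0.05 and none higher, with a median log2 change of -0.11. Over all genes tested 54.5% had a negative log2 change and 9.63% were lower at that p. Frmd6 stood at 2.78 ± 0.204 FPKM in miR-181d-5p livers and 3.67 ± 0.415 FPKM in control livers. Map4k1, a kinase of blood cells that can phosphorylate LATS, stood at 1.31 ± 0.263 and 1.74 ± 0.0805 FPKM, in the same order. Both had groups that did not overlap, as 2 of the 23 tested genes, and 1.45% of all genes tested were lower in this way. Rassf5 and Rassf1, which bind STK3 and STK4, stood at 81.7% and 81.8% of their control means. None of these 4 passed over all genes (limma adjusted p = 0.222, 0.250, 0.259 and 0.320).

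Proteins that bind or restrain LATS, YAP or TAZ were counted in 25 tested genes. Of these 22 had a negative log2 change and 3 were lower at an unadjusted p under 0.05, with none higher and a median of -0.07, against the same 54.5% and 9.63% of all genes. The 4 with the smallest p were Csnk1e, a casein kinase that marks phosphorylated YAP for degradation, at 79.5% of its control mean, Ptpn14, which holds YAP in the cytoplasm, at 56.1%, Amotl2, an angiomotin that does so too, at 83.4%, and Ywhaq, a 14-3-3 protein, at 92.2%. Their limma adjusted p were 0.250, 0.250, 0.269 and 0.411. The TEAD and Vestigial-like genes outside the 10 were Tead2, at 1.07 to 2.17 FPKM in miR-181d-5p livers and 1.34 to 2.13 FPKM in control livers (limma adjusted p = 0.620), and Vgll3, at 0.170 to 0.318 and 0.288 to 0.449 FPKM. Vgll1 was listed at 0 in 9 of the 10 livers.

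Genes that YAP and TEAD are known to activate were counted from a published signature of human cancers. Of 20 tested genes 18 had a negative log2 change and 11 were lower at an unadjusted p under 0.05, with a median of -0.25, against 54.5% and 9.63% of all genes and a median of -0.02. Ccn2, which encodes connective tissue growth factor, was at 43.6% of its control mean (log2 change -1.12, limma adjusted p = 0.167). Axl, a receptor tyrosine kinase, was at 83.3%, Ccdc80 at 75.0% and Myof at 65.3% (limma adjusted p = 0.240 for each). Groups that did not overlap, lower in miR-181d-5p livers, were seen in 2 of the 20 genes, Ccn2 and Axl, and in 1.45% of all genes tested. Lats2, Ptpn14 and Amotl2 belong to this list as well. The summed FPKM of the list ran from 148 to 186 in miR-181d-5p livers and from 199 to 434 in control livers. The 434 is control liver 5, where Ccn1, which encodes the matricellular protein CYR61, stood at 178 FPKM, against 8.85 to 17.8 FPKM in miR-181d-5p livers and 10.5 to 20.9 FPKM in the other 4 control livers. Without control liver 5 the highest control sum was 223. Without Ccn1 the sums ran from 140 to 171 in miR-181d-5p livers and from 186 to 255 in control livers. These sums still hold Ccn2, with means of 21.3 FPKM in miR-181d-5p livers and 48.8 FPKM in control livers.

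**Figure D4:**
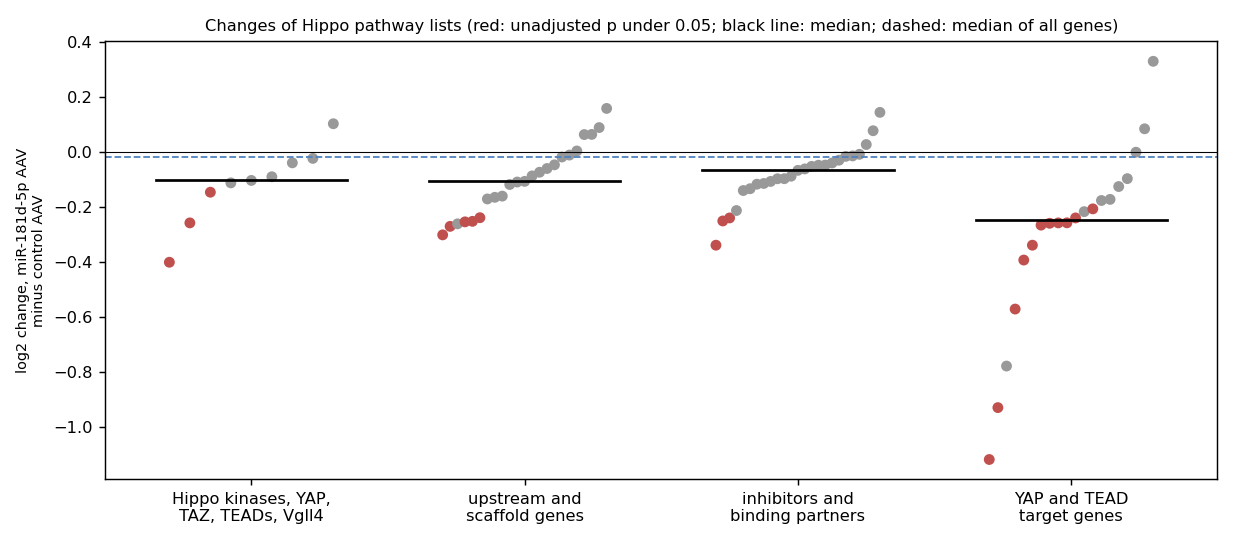
Log2 change (vertical axis, miR-181d-5p AAV minus control AAV) of each tested gene in 4 lists, sorted within a list, with red for an unadjusted p under 0.05, a black line for the median of the list and a dashed line for the median of all genes tested. The median is -0.10 for the 9 Hippo genes, -0.11 and -0.07 for the 2 regulator lists and -0.25 for the target genes, and no gene passed after adjustment over all genes in the fit with group as the only term.

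Bulk liver RNA does not tell fewer cells of a type from less RNA per cell, and several cell types express these genes. Hepatocyte markers were abundant in each library, with 8 of 8 measured and sums of 33402 to 38123 FPKM in miR-181d-5p livers and 31892 to 38636 FPKM in control livers. Of these 8 markers 6 had a positive and 2 a negative log2 change, with 1, Ttr, higher at an unadjusted p under 0.05. Of 12 stellate cell and fibroblast markers 11 had a negative log2 change and 7 were lower at an unadjusted p under 0.05. Of all genes tested 54.5% had a negative log2 change, and at that p 9.63% were lower and 5.04% higher. The stellate cell and fibroblast sums were 359 to 486 FPKM in miR-181d-5p livers and 483 to 658 FPKM in control livers. All 7 tested cholangiocyte markers had a negative log2 change, 4 at an unadjusted p under 0.05, with sums of 118 to 375 and 276 to 512 FPKM, in the same order. Endothelial marker sums were 117 to 125 and 119 to 135 FPKM, in the same order, with 6 of 8 lower and 2 of these, Lyve1 and Pecam1, at an unadjusted p under 0.05. For macrophages the marker sums were 753 to 854 and 831 to 1004 FPKM. Of 8 macrophage markers 5 had a negative log2 change. At an unadjusted p under 0.05 there were 3 lower (Adgre1, Mpeg1 and Csf1r) and 1 higher (Marco). Lymphocyte marker sums were 9.20 to 14.1 and 9.29 to 19.5 FPKM (5 of 6 tested lower, 1 of them, Cd4, at an unadjusted p under 0.05). Groups did not overlap, being lower in miR-181d-5p livers, for 2 of 8 macrophage markers (Adgre1 and Mpeg1). The same held for 1 of 12 stellate cell and fibroblast markers (Cygb) and 1 of 6 lymphocyte markers (Cd4). The other marker lists held none, and the share of all genes tested was 1.45%. No marker of these lists was at 0 in any liver, and none passed over all genes. The median log2 change was 0.05 for hepatocyte, -0.32 for stellate cell and fibroblast, and -0.47 for cholangiocyte markers. It was -0.07 for endothelial markers and -0.18 for both macrophage and lymphocyte markers. The part of these cell types in the lower means of Wwtr1, Tead1 and Lats2 was not tested. Nor was their part in the lower means of the YAP and TEAD target genes.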

How the data were processed

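Polyadenylated RNA of 10 livers was sequenced from libraries of the TruSeq Stranded mRNA kit, per the labels' protocols. The authors deposited 1 table of FPKM by gene symbol. Per the submitters' processing notes, which give no roles, mm10 was the build and the tools were HISAT2 2.2.1, Trimmomatic 0.38, DESeq2 1.18.1, FastQC 0.11.9, R 3.4.1 and HTSeq 0.13.5. No source used here says whether counting used strand. In GENCODE vM21 an opposite-strand gene shares 116 exonic bases with Yap1, and a same-strand gene 2955 with Lats2, so reads there are uncertain.

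Each FPKM value was a whole number of reads over a gene length and a library total, within 0.02 of a read for all 12053 tested genes. In simulated reads 99.9% of 2527 genes with reads in all livers came back exactly. Counting depth limits the precision of low genes most, and it adds to the spread of the other genes too. Wwtr1, for example, had 780 to 1020 reads per liver. A count test was not the main test, because the deposited values are FPKM.

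Genes averaging 0.5 FPKM or more were fitted in R 4.3.3 as log2(FPKM + 1) by limma 3.58.1, with lmFit and a trended eBayes and only the group in the model. Exact permutation tests ran over all 252 labellings. Alternatives were other pseudocounts, filters, scalings, weights, voom, a replicate block and leaving out each liver. Positions are 1-based, mm10. Other steps used matplotlib 3.10.9, pandas 2.3.3, numpy 2.4.6 and Python 3.11.15. The 10 genes, the lists and the rules for naming genes (all 10; up to 4 per pathway list by p; the 3 most alike to Yap1 and to Wwtr1) were chosen with earlier results of these data known. Ccn1 and the single cell type markers were named after their values were seen.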

Additional observations from a re-analysis of the deposited data

How the results depend on the processing

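None of the 9 tested genes passed an adjusted p of 0.05 under any of the 21 alternatives. Wwtr1, Tead1, Tead3, Lats2, Stk3 and Stk4 kept their sign in all of them. Tead1 was at an unadjusted p under 0.05 in all 21, Lats2 in 18 and Wwtr1 in 10. The adjusted p ran from 0.150 to 0.534 for Tead1, from 0.156 to 0.546 for Lats2 and from 0.187 to 0.601 for Wwtr1. The count of the 9 genes at an unadjusted p under 0.05 was 3, and 1 (Tead1) with the replicate block. Leaving out 1 liver each gave 1 to 4, with 1 without control liver 2 or miR-181d-5p liver 2, Tead1 in both. Over all genes the count was 1768, and 1071 to 2587 with 1 liver left out, the lowest without miR-181d-5p liver 4. The replicate block called 1 gene of all (Ccn2) and voom with quality weights 2 (Inhbb and Jdp2). Leaving out 1 liver called 0 to 3, the 3 without control liver 1.

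Signs turned for 3 tested genes near 0 and for Tead4, and the cause was not tested. The log2 change of Yap1 became 0.0104 with the gene length trend removed, 0.0281 without control liver 1, -0.133 without control liver 5, 0.0093 without control liver 4 and 7.2e-04 without miR-181d-5p liver 4. That of Vgll4 became 0.0692 with the gene length trend removed, 0.037 with quantile normalization, 0.0015 without control liver 4, -0.108 without control liver 5 and 0.0087 without miR-181d-5p liver 4. That of Lats1 became 0.0128 without control liver 1 and -0.220 without control liver 5. The log2 difference of Tead4, which was not tested, was -0.02 over all livers, 0.0024 without miR-181d-5p liver 2 and 0.0423 without control liver 2. Same-numbered livers were not alike in their deviations from the group means, with correlations from -0.28 to 0.01. With 5 livers per group, this cannot show whether the replicate numbers mark pairs. A quasi-likelihood count test was not run, since the unit is FPKM. The lengths of GENCODE vM21 were chosen as an alternative after the data were seen. Low read numbers limit the precision of Tead4 most, with 81 reads in miR-181d-5p livers and 87 in control livers, and next that of Tead3, with 910 and 828 reads.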
